A study of Mus musculus with 2 samples.

Results

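Mitochondrial carriers and import machinery are described here in primordial germ cells (PGCs) of the mouse embryo, as the genes whose symbol marks a member of the Slc25 carrier family, an uncoupling protein, a subunit of the pyruvate carrier, or a subunit of the translocases of the outer (Tomm) and inner (Timm) membrane. The name pattern found 65 genes among the 18877 genes of the table. Of these, 39 were carriers, 25 were import genes and 1 was Tomm6os, an antisense RNA that the pattern takes in by its name. In the study, PGCs of embryonic day 9.5 (E9.5) are an in vivo reference for PGC-like cells made from parthenogenetic embryonic stem cells. The samples form 1 group of 2 RNA-seq libraries, labelled replicates 1 and 2, from C57BL6 embryos, with the PGCs isolated by an antibody against SSEA1 and given no treatment. Each library is a pool of sorted cells, and the methods describe the dissected embryos as female. No other group enters the values, so the comparisons run between genes and between the 2 libraries.

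Most mitochondrial proteins are encoded in the nucleus, made in the cytosol and brought in through TOM, the pore of the outer membrane. Precursors with a presequence then pass the TIM23 complex, while carrier proteins, which lack one, are guided by the small Tim chaperones of the intermembrane space to the TIM22 complex and set into the inner membrane. The finished carriers exchange ADP for ATP and move phosphate, pyruvate, amino acids, cofactors and iron across that membrane. PGCs are the embryonic founders of sperm and eggs, and they multiply while they migrate towards the future gonads.

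Recovered reads summed over genes came to 15912469 and 5458687, a ratio of 2.92, so replicate 1 gave the narrower interval for every member at a like level. Both sums are estimates, in which a read in overlapping genes may count more than once. These totals were recovered from the deposited values, which are TPM (reads per base of gene, scaled to the same total in every library), with the summed exon length of each gene. Replicate 1 gave whole reads, within 0.02, for 96.7% of the values worth less than 50 reads, and replicate 2 for 95.8% of them. Intervals given with a TPM are exact Poisson 95% intervals of the reads and cover counting error only. All 9 PGC markers were above 1 TPM in both libraries, from Dppa3 at 5013 and 5075 TPM to Prdm1 at 7.84 and 6.11 TPM. Red cell genes were also present, with the 6 erythroid markers in the table summing to 3983 and 3765 TPM, nearly all of it globin.

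Import genes were far more abundant than carriers. The median log2(TPM + 1) of the 25 import genes was 6.36 ± 0.28 (SD, n = 2 libraries here and throughout), against 2.32 ± 0.10 for the 39 carriers and 1.87 ± 0.03 for all genes of the table. The 65 members together had a median of 3.30 ± 0.07. All but 1 of them are protein-coding, and the 12679 protein-coding genes of the table had 2.25 ± 0.05, near the carriers. Mitochondrial ribosomal protein genes, another nuclear set whose products enter the organelle, had a median of 6.23 ± 0.05 over 78 genes, and the 143 solute carriers outside the Slc25 family had 1.28 ± 0.02. The distance between carriers and import genes on this scale was far larger than the SD of either median. These SDs are between libraries and do not measure the spread over genes. Mean TPM ran from 0.595 to 1594 over the import genes and from 0.028 to 788 over the carriers. No test was made of the distance, because genes are not replicates. The alternatives given at the end were applied to the median of all 65 members and not to these 2 medians. In bulk RNA, fewer cells with a transcript and less of it per cell cannot be told apart.

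A level of at least 1 TPM in both libraries was reached by 54 of the 65 members, 83.1%, where 60% of all genes reached it. It was reached by 24 of the 25 import genes and by 29 of the 39 carriers, 74.4%. Of the 12679 protein-coding genes, 69.5% reached it, so the carriers were not far above these. A level of at least 10 TPM in both libraries was reached by 31 members, 47.7%, against 25.3% of all genes. A level of at least 100 TPM was reached by 15 members, 23.1%, against 6.1% of all genes. A few members carried most of the signal. Timm8b, Tomm7, Slc25a5, Slc25a4 and Tomm6 held 56.9% of the members' summed TPM in replicate 1 and 59.9% in replicate 2, and the 20 highest members held 94.4% and 94.97%. The sum over the members was 7760 and 7615 TPM.

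**Figure D1:**
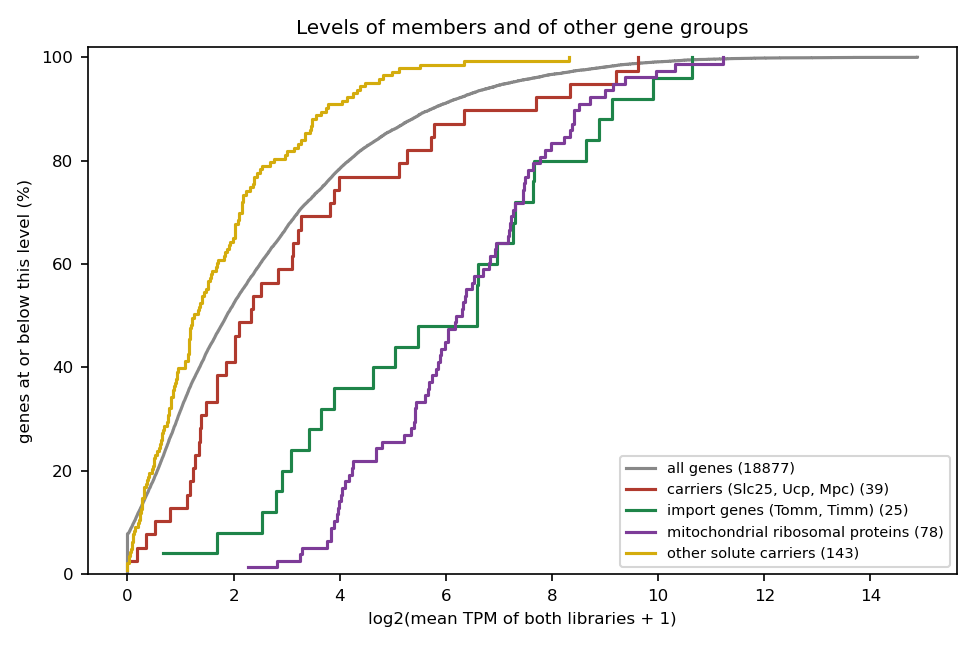
Cumulative share of genes (%) against log2 of the mean TPM of both libraries plus 1, for all genes, carriers, import genes, mitochondrial ribosomal protein genes and other solute carriers. Medians taken in each library and then averaged were 6.36 for the import genes and 6.23 for the ribosomal protein genes. The curves of these 2 groups part at the low end, where the lowest mean TPM was 0.595 and 3.80. The carriers lie closer to all genes.

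**Figure D2:**
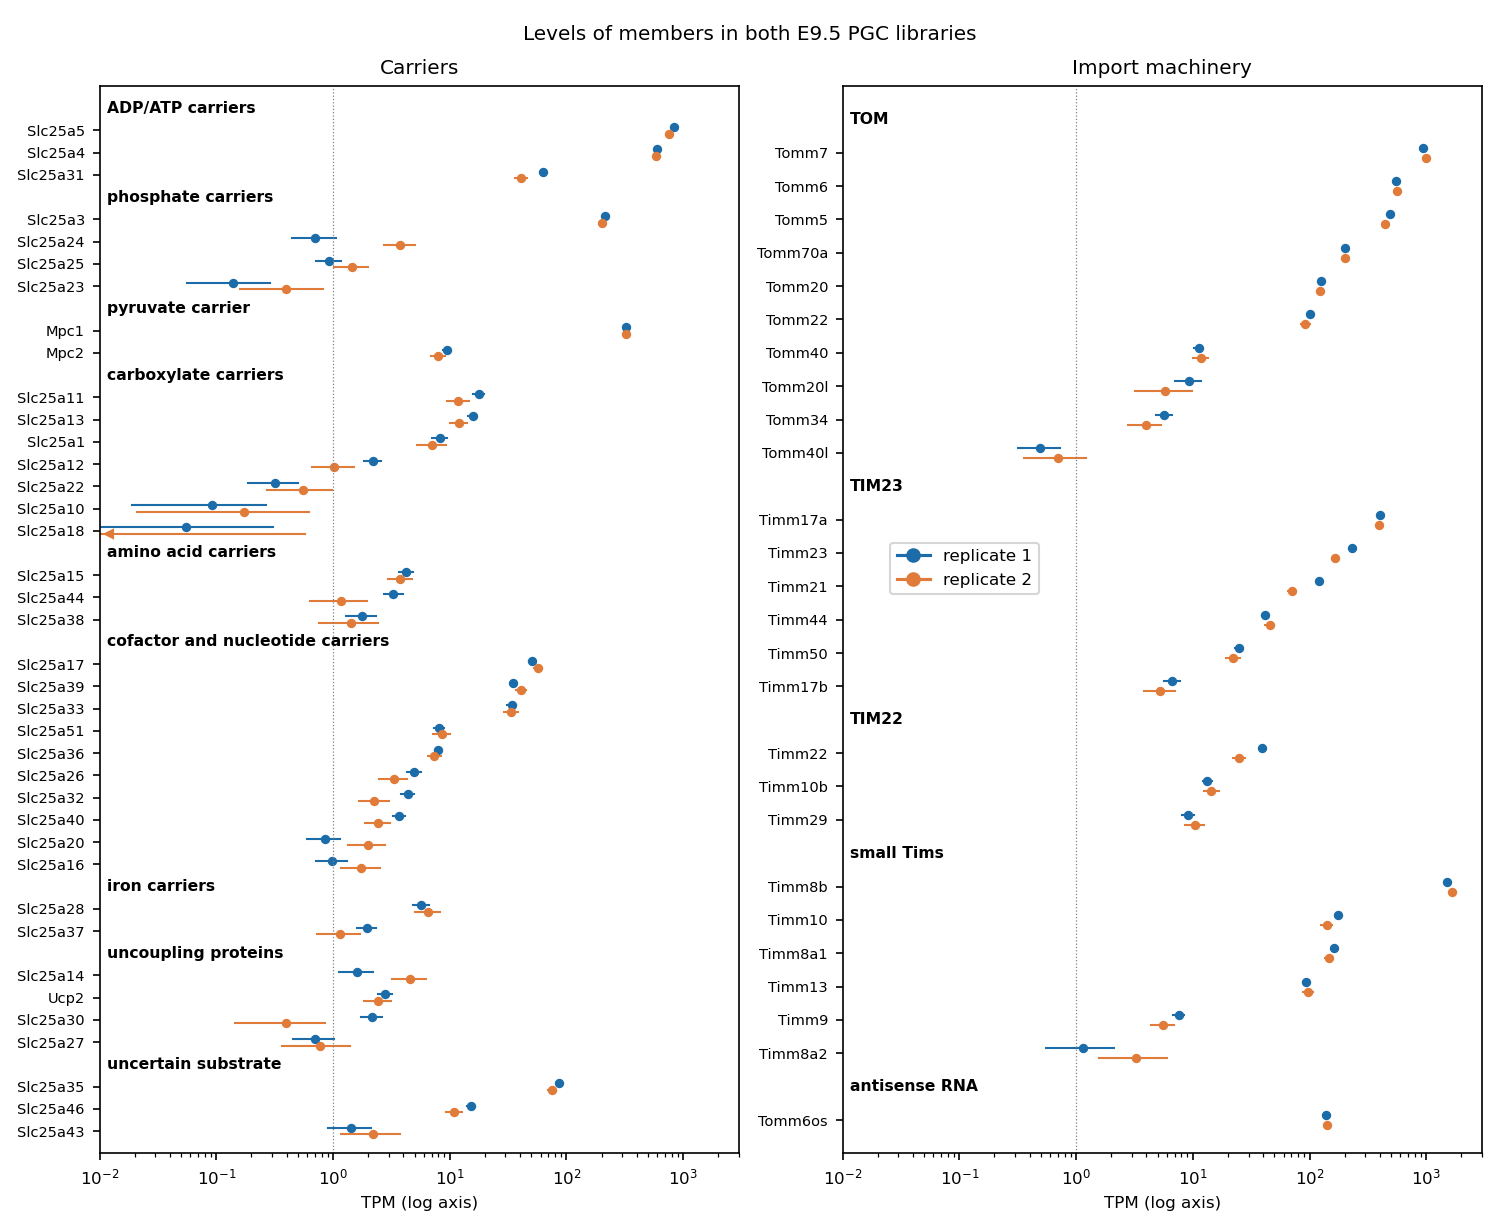
TPM of 64 of the 65 members (log axis) by role, with replicate 1 in blue, replicate 2 in orange and horizontal bars for exact Poisson 95% intervals; an arrowhead marks a library with 0 reads and the dotted line stands at 1 TPM. Levels run from Timm8b at 1518 and 1671 TPM down to Slc25a18, which had 1 read in replicate 1 and none in replicate 2.

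Among the ADP/ATP carriers, which pass newly made ATP to the cytosol in exchange for ADP, Slc25a5 and Slc25a4 were both high and Slc25a31 was an order of magnitude lower. Slc25a5 (Ant2, the form of dividing cells, on chromosome X) stood at 828 TPM in replicate 1 and 749 TPM in replicate 2. Slc25a4 (Ant1, best known from heart and muscle) stood at 594 and 589 TPM. Slc25a31 (Ant4, the form of germ cells, known from the testis) stood at 63.0 TPM with an interval of 59.6 to 66.5, and at 40.8 TPM with an interval of 36.2 to 45.7. The order of the 3 genes in TPM was the same in both libraries. Slc25a31 lay above 91.0% of all genes in replicate 1 and above 88.4% in replicate 2. Slc25a5 made up 55.7% and 54.3% of the TPM of the trio, Slc25a4 40.0% and 42.7%, and Slc25a31 4.24% and 2.96%.

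Slc25a5 exceeded Slc25a31 by 13.1-fold in replicate 1 and 18.4-fold in replicate 2, and Slc25a4 exceeded it by 9.43-fold and 14.5-fold. Compared as reads, without dividing by length, the ratios were 10.2 and 14.2 for Slc25a5 and 10.4 and 16.0 for Slc25a4. The order of the other pair rested on length. In TPM, Slc25a5 was 1.39-fold and 1.27-fold above Slc25a4, while in reads Slc25a4 was higher, with 13286 against 12949 in replicate 1 and 4634 against 4123 in replicate 2. Of 8 heart and muscle markers 3 are in the table, and they summed to 10.4 and 13.04 TPM, with Myl7 at 8.91 and 8.62 TPM and none of the 3 at 0 in either library.

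The promoters of the 3 genes are shown because their levels differ so widely. Each run holds the 250 bases before the RefSeq start (GRCm38.p6), read 5′ to 3′ on the strand of the gene. Capitals mark TGCGCA (the core of an NRF1 site), CACGTG (an E-box), TCCCGC (a core bound by E2F factors) or CCGGAAG (an ETS site). Slc25a4 is read from chr8:46211063-46211312 on the minus strand, Slc25a5 from chrX:36795347-36795596 on the plus strand and Slc25a31 from chr3:40708621-40708870 on the plus strand. The Slc25a4 window lies mostly within the longer gene model used for the lengths, which ends at position 46211284.
Slc25a4: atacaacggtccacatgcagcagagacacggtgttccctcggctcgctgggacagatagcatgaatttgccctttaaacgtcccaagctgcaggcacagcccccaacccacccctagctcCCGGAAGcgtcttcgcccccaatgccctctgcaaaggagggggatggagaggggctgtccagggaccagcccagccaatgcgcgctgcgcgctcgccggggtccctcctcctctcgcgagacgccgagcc
Slc25a5: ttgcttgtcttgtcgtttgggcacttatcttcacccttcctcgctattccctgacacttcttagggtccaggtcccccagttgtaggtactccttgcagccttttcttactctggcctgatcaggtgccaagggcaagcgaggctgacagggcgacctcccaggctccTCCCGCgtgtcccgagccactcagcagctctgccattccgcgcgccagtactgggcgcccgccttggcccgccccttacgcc
Slc25a31: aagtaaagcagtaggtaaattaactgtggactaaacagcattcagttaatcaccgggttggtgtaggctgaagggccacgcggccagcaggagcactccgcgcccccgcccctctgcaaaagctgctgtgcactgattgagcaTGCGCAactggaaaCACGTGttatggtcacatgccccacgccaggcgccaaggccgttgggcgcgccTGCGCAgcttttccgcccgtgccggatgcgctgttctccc
The window of Slc25a31 held TGCGCA at 2 places and 1 CACGTG. That of Slc25a4 held 1 CCGGAAG, and that of Slc25a5 held 1 TCCCGC. The 3 windows had 18, 14 and 18 CpG dinucleotides for Slc25a4, Slc25a5 and Slc25a31. TCCCGC was not particular to Slc25a5. The longer windows described below, which run past the start and were searched on both strands, held it for Slc25a31 too.

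The phosphate carrier Slc25a3, which supplies the phosphate that ATP synthase uses, was at 213 and 200 TPM, or 518 and 485 TPM with the 1612 bases of its principal transcript in place of 5550 bases of summed exons. The 3 calcium-regulated ATP-Mg/phosphate carriers were low. Slc25a24 was at 0.705 TPM with an interval of 0.447 to 1.06 in replicate 1 and at 3.75 TPM with an interval of 2.71 to 5.05 in replicate 2, from 23 and 43 reads. Slc25a25 was at 0.923 and 1.45 TPM, and Slc25a23 at 0.139 and 0.396 TPM with 7 reads in each library. The level of Slc25a24 was therefore not settled by these libraries, and its order against Slc25a25 turned between them, with Slc25a25 at 1.31 and 0.386 times Slc25a24. Slc25a41 was not analysed here.

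The pyruvate carrier is a dimer of Mpc1 and Mpc2 that lets the product of glycolysis into the matrix. Mpc1 was at 322 and 324 TPM and Mpc2 at 9.47 and 7.94 TPM, a ratio of 34.0 and 40.8. The size of this ratio depended on length. The table's length of Mpc2 is 7344 bases, summed over all annotated exons, and its principal transcript has 1025 bases. By reads the ratio was 9.65 and 11.6, and with the length of the principal transcript 10.3 and 12.4, so Mpc1 was the higher in every case. Mpc1 also shares 480 exonic bases with 4930506C21Rik on the opposite strand, which had 5463 and 1937 reads beside the 6377 and 2253 of Mpc1. The pseudogene Mpc1-ps, outside the rule, was listed at 1419 and 1426 TPM and holds 8.49% of the 100-base words of Mpc1, so the division of reads between the copies is uncertain.

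Carriers of carboxylates and of the malate-aspartate shuttle, which brings reducing equivalents from the cytosol into the matrix, were low to moderate. The oxoglutarate/malate carrier Slc25a11 was at 17.7 and 11.9 TPM. Of the aspartate/glutamate carriers, Slc25a13 was at 15.7 and 11.9 TPM and Slc25a12 at 2.19 and 1.02 TPM, so that Slc25a13 was 7.15-fold and 11.7-fold the higher. By reads this ratio was 3.70 and 6.04, and with principal transcripts 7.53 and 12.3. The citrate carrier Slc25a1, which exports citrate for lipid synthesis, was at 8.22 and 7.01 TPM. The glutamate carrier Slc25a22 was at 0.316 and 0.549 TPM, and the dicarboxylate carrier Slc25a10 had 3 and 2 reads, or 0.0913 and 0.173 TPM. The other glutamate carrier, Slc25a18, had 1 read in replicate 1 (0.055 TPM) and 0 reads in replicate 2, which allows up to 0.470 TPM, the value of 3 reads. These last 3 were under 1 TPM in both libraries. Slc25a21 was not analysed here.

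The amino acid carriers were all below 5 TPM. The ornithine carrier Slc25a15, part of the urea cycle and of polyamine synthesis, was at 4.24 and 3.77 TPM. Slc25a44, a carrier of branched-chain amino acids, was at 3.29 TPM with an interval of 2.71 to 3.96 and at 1.17 TPM with an interval of 0.640 to 1.96. Slc25a38, which brings in the glycine that starts haem synthesis, was at 1.76 and 1.42 TPM. Of the iron carriers, mitoferrin 2 (Slc25a28) was at 5.70 and 6.52 TPM and mitoferrin 1 (Slc25a37), the form of red cell precursors, at 1.94 and 1.14 TPM. Mitoferrin 2 was 2.94-fold and 5.71-fold the higher. By reads this ratio was 1.48 and 2.87, and with principal transcripts 4.02 and 7.80, so its size depended on length. Red cell markers lay beside these values with 6 of 10 in the table and 5 of the 6 above 1 TPM in both libraries. The globin Hba-x was at 2331 and 2065 TPM, while Klf1 was at 0.275 and 1.56 TPM, with none of the 6 at 0. The part of red cell RNA in the level of Slc25a37 and Slc25a38 was not tested.

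Among 11 carriers of cofactors, nucleotides, glutathione and acylcarnitine, 9 were above 1 TPM in both libraries and 3 above 10 TPM. Of all genes, 60% and 25.3% reached these levels. The highest was Slc25a17, the peroxisomal carrier of coenzyme A and related nucleotides, at 50.2 and 56.9 TPM. The glutathione carrier Slc25a39 was at 34.9 and 40.6 TPM, and its relative Slc25a40 at 3.69 and 2.43 TPM, a ratio of 9.46 and 16.7. By reads this ratio was 3.11 and 5.50, and with principal transcripts 5.14 and 9.09. The pyrimidine nucleotide carrier Slc25a33 was at 33.8 and 33.6 TPM and its paralog Slc25a36 at 8.004 and 7.39 TPM. In reads this last order was the opposite, with 730 for Slc25a36 against 607 for Slc25a33 and 237 against 212, while with principal transcripts Slc25a33 stayed 2.30-fold and 2.48-fold the higher. Slc25a33 also shares 281 exonic bases with the antisense gene Gm13068, which had 336 and 109 reads. The NAD carrier Slc25a51, through which the matrix obtains its NAD, was at 8.13 and 8.52 TPM.

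Slc25a26, which imports S-adenosylmethionine for methylation inside the organelle, was at 4.97 and 3.30 TPM, and the folate and FAD carrier Slc25a32 at 4.36 and 2.26 TPM. The lowest of the 11 genes were Slc25a20, the carnitine/acylcarnitine carrier of fatty acid oxidation, at 0.847 and 1.98 TPM, and Slc25a16 at 0.986 and 1.75 TPM. Both were under 1 TPM in replicate 1 only. Slc25a42, a coenzyme A carrier, was not analysed here.

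No uncoupling protein or relative reached 5 TPM. Ucp2, which is widely expressed, was at 2.80 and 2.44 TPM, and Slc25a27 (Ucp4, known from brain) at 0.705 and 0.779 TPM. Slc25a14 (Ucp5) was at 1.60 and 4.56 TPM from 36 reads in each library, and its relative Slc25a30 at 2.14 and 0.393 TPM from 93 and 6 reads. Which of Slc25a14 and Slc25a30 was the higher turned between the libraries. Ucp1 and Ucp3 were not analysed here.

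Of the family members with an uncertain substrate, Slc25a35 was listed at 86.4 and 74.7 TPM. Its reads could not be told from those of a neighbour. Slc25a35 shares 1151 exonic bases with Rangrf on the opposite strand, 90.7% of the exonic length of that gene, and the reads were 3019 for Slc25a35 and 3002 for Rangrf in replicate 1, and 918 and 916 in replicate 2. Slc25a46, an outer membrane protein of mitochondrial dynamics, was at 15.3 and 10.9 TPM, and Slc25a43 at 1.42 and 2.18 TPM. Slc25a34, Slc25a45, Slc25a47, Slc25a48, Slc25a53 and Slc25a54 were not analysed here, nor were the amino acid carriers Slc25a2 and Slc25a29.

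In the TOM complex, the small subunits were the most abundant transcripts and the channel itself was among the lower ones. Tomm7 was at 929 and 988 TPM, Tomm6 at 551 and 561 TPM and Tomm5 at 493 and 446 TPM. These 3 subunits stabilise the pore. The receptors came next, with Tomm70a, the receptor for carrier precursors, at 202 and 202 TPM, Tomm20, the presequence receptor, at 125 and 123 TPM, and the central receptor Tomm22 at 101.2 and 91.9 TPM. Tomm40, the beta-barrel through which nearly every precursor passes, was at 11.3 and 11.7 TPM, from 484 and 176 reads over 4513 exonic bases. With the 1646 bases of its principal transcript in place of the summed exons, Tomm40 would stand at 21.9 and 22.6 TPM. The cytosolic cochaperone Tomm34 was at 5.68 and 3.94 TPM.

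The reads of Tomm6 could not be told from those of another gene either. It shares 859 exonic bases with Gm21981 on the same strand, and the reads were 5924 and 5922 in replicate 1 and 2123 and 2123 in replicate 2. Tomm6os, on the opposite strand, was at 137 and 142 TPM and shares 219 exonic bases with Tomm6. It also shares 958 exonic bases with Gm21981 and 1221 with Prickle4, both on the strand opposite to Tomm6os, so its level is uncertain. The relatives of the receptor and of the channel were low. Tomm20l, a relative of Tomm20 known from germ cells, was at 9.20 TPM with an interval of 7.07 to 11.8 and at 5.82 TPM with an interval of 3.18 to 9.76, from 63 and 14 reads. Tomm20 was 13.6-fold and 21.1-fold the higher. Tomm40l was at 0.492 and 0.699 TPM, and its 24 and 12 reads equal those of Nr1i3, which shares 3304 exonic bases with it on the opposite strand.

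The promoters of Tomm20 (chr8:126945922-126946171, minus strand) and Tomm20l (chr12:71111178-71111427, plus strand) are shown for this contrast within a pair, with the same rules and capitals.
Tomm20: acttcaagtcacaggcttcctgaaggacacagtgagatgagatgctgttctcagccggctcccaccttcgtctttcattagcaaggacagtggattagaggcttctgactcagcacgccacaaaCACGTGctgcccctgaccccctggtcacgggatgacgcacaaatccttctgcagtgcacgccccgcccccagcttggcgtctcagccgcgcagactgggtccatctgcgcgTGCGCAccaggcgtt
Tomm20l: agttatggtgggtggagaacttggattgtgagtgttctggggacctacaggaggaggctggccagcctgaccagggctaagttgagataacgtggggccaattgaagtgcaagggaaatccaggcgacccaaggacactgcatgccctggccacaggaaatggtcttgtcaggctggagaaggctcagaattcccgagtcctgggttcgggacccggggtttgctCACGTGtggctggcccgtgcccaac
Both windows held a CACGTG, and that of Tomm20 also held a TGCGCA. They had 15 and 7 CpG dinucleotides. In the longer windows, TCCCGC was also found for Tomm20 and not for Tomm20l.

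In the TIM23 complex, which takes presequence proteins across or into the inner membrane, Timm17a led at 397 TPM in both libraries. Its paralog Timm17b on chromosome X was at 6.62 and 5.26 TPM, 60.0-fold and 75.3-fold below Timm17a, and the intervals of Timm17b, 5.64 to 7.73 and 3.84 to 7.04, leave it far from its partner. The channel subunit Timm23 was at 231 TPM with an interval of 224 to 239 and at 166 TPM with an interval of 156 to 176. Transcripts of other genes hold 47.0% of the 100-base words of Timm23, so its level is uncertain. Timm21, which links the complex to TOM, was at 121 and 70.5 TPM. The motor scaffold Timm44 was at 41.5 and 45.6 TPM and the receptor Timm50 at 25.0 and 22.3 TPM.

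The TIM22 complex was the lowest of the import groups, with a median log2(TPM + 1) of 3.90 ± 0.08 over its 3 genes, against 6.01 ± 0.22 over the 6 of TIM23. The channel Timm22 was at 39.03 TPM with an interval of 36.8 to 41.3 and at 24.8 TPM with an interval of 21.9 to 28.0. Timm10b was at 13.3 and 14.4 TPM and Timm29 at 9.13 and 10.4 TPM. Timm10b had 454 and 173 reads where the same-strand gene Gm45799, which shares 376 exonic bases with it, had 447 and 163.

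The small Tims, which escort hydrophobic precursors across the intermembrane space, included the highest member of all. Timm8b was at 1518 and 1671 TPM, rank 92 of 18877 genes by its mean. It shares 81 of its 518 exonic bases with Nkapd1 on the opposite strand, which had 3510 and 1429 reads beside the 7475 and 2893 of Timm8b. Timm10 was at 174 and 140 TPM, Timm8a1 at 162 and 145 TPM and Timm13 at 92.7 and 96.7 TPM. Transcripts of other genes hold 38.8% of the 100-base words of Timm8a1. Timm9, which forms a hexamer with Timm10, was at 7.59 and 5.52 TPM, and Timm10 exceeded it 22.9-fold and 25.3-fold. In reads the ratio was 4.36 and 4.82, and with principal transcripts 6.26 and 6.92, as the summed exons of Timm9 span 4282 bases and its principal transcript 990. Timm8a2 was at 1.15 and 3.28 TPM from 10 reads in each library.

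**Figure D3:**
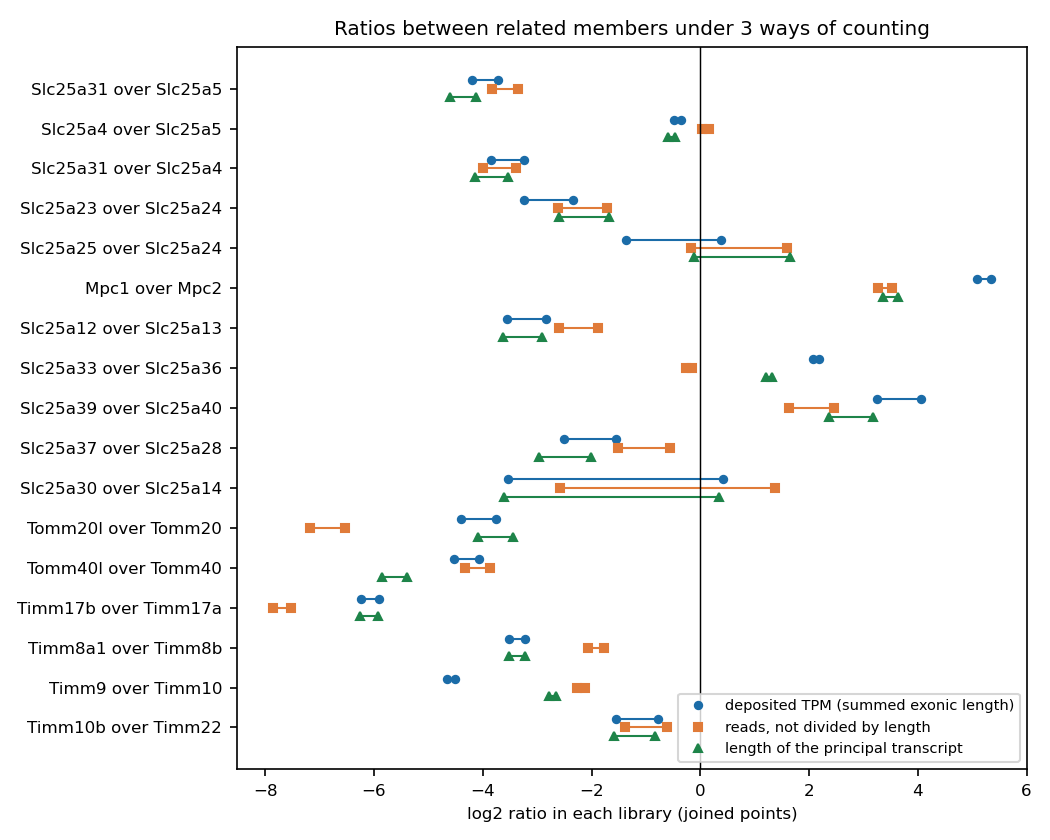
Log2 ratio between related members in each library, with joined points for the 2 libraries, from deposited TPM (circles), reads not divided by length (squares) and the length of the principal transcript (triangles). Of the 17 ratios shown, Slc25a4 over Slc25a5 and Slc25a33 over Slc25a36 change sign between TPM and reads, and Slc25a30 over Slc25a14 and Slc25a25 over Slc25a24 change sign between libraries.

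**Figure D4:**
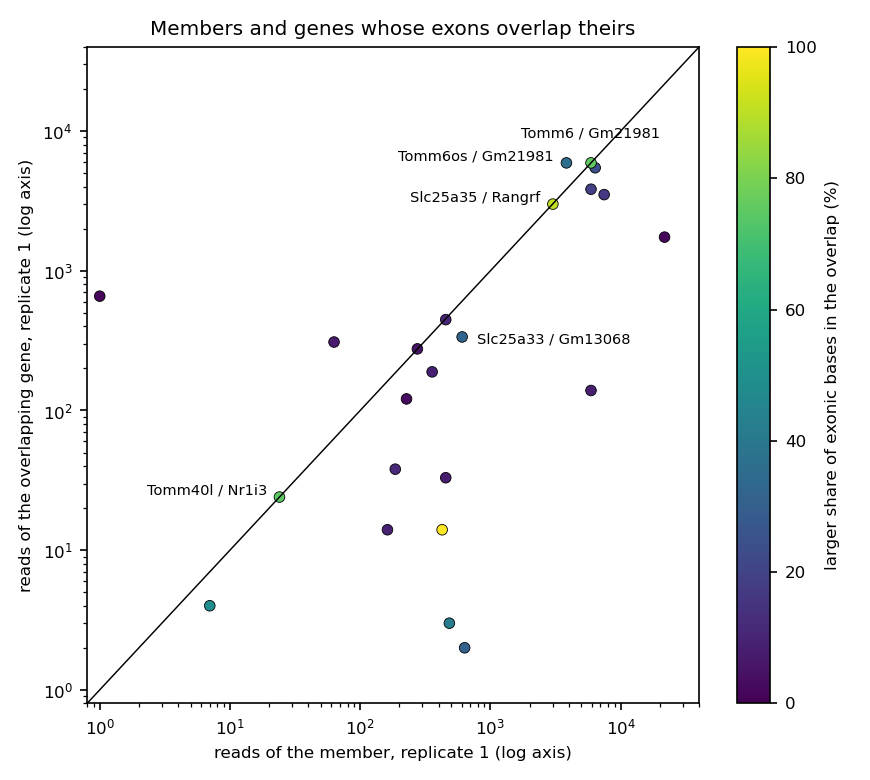
Reads of each overlapping gene against reads of the member in replicate 1 (log axes), coloured by the larger share of exonic bases in the overlap (%), for 23 pairs with reads in both genes. Tomm6 with Gm21981, Slc25a35 with Rangrf and Tomm40l with Nr1i3 lie on the line of equal reads. Timm29 with Yipf2, which share only 107 exonic bases, lies on it too, with 275 and 276 reads in replicate 1.

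Exons of 27 of the 65 members overlap those of another gene, on the same strand for 5 and on the opposite strand for 25. How reads in such stretches were assigned is not given in the sources used here. Leaving out the 10 members with over 10% of their exonic bases or 100-base words in common with another gene, the median log2(TPM + 1) of the other 55 was 3.04. Higher members tended to be shorter. Spearman's rho of TPM with exonic length was -0.40 in replicate 1 and -0.42 in replicate 2 over the 65 members, and -0.14 in both over 12679 protein-coding genes. These are descriptions across genes, and TPM is itself divided by that length.

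The 2 libraries ranked the members alike. Pearson's r of log2(TPM + 1) between them was 0.988 over the 65 members and 0.960 over all genes, again across genes and not across samples. A difference of more than 2-fold on the log2(TPM + 1) scale was found for 2 members in favour of replicate 2, Slc25a24 by 1.48 and Slc25a14 by 1.09, where 4.31% of all genes had it. In favour of replicate 1 it was found for 1 member, Slc25a30, at -1.17 (replicate 2 minus replicate 1), where 5.89% of all genes had it. Each of these genes had under 50 reads in replicate 2.

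The exact Poisson intervals of the libraries overlapped for most members. They did not overlap for 18 members higher in replicate 1, 27.7%, against 14.8% of all genes. For 5 members higher in replicate 2 they did not overlap either, 7.69%, against 9.9% of all genes. Intervals are narrower, relative to the level, for genes with more reads. The members' median log2(TPM + 1) was 3.30 against 1.87 for all genes, so these shares are not a like comparison. The 18 included Slc25a5, Slc25a3, Slc25a31, Timm23, Timm21, Timm22 and Timm10, and the 5 were Timm8b, Tomm7, Slc25a14, Slc25a20 and Slc25a24. On the log2(TPM + 1) scale, replicate 2 minus replicate 1 was 0.14 for Timm8b, 0.09 for Tomm7, -0.31 for Timm10, -0.48 for Timm23, -0.62 for Slc25a31, -0.63 for Timm22 and -0.77 for Timm21. Between the same libraries the 5 macrophage markers in the table summed to 23.9 and 12.1 TPM, with C1qb at 1.16 and 0 TPM, and all 5 were lower in replicate 2. The 5 endothelial markers summed to 12.9 and 11.002 TPM, most of it Pecam1 at 8.23 and 9.99 TPM. The other 4 were all lower in replicate 2, with Emcn at 2.12 and 0 TPM. The 4 visceral endoderm markers summed to 3.397 and 9.23 TPM, with Afp at 0 in replicate 2. Their part in the differences was not tested, and since each library is 1 sample of the same group, no test between them can be made.

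**Figure D5:**
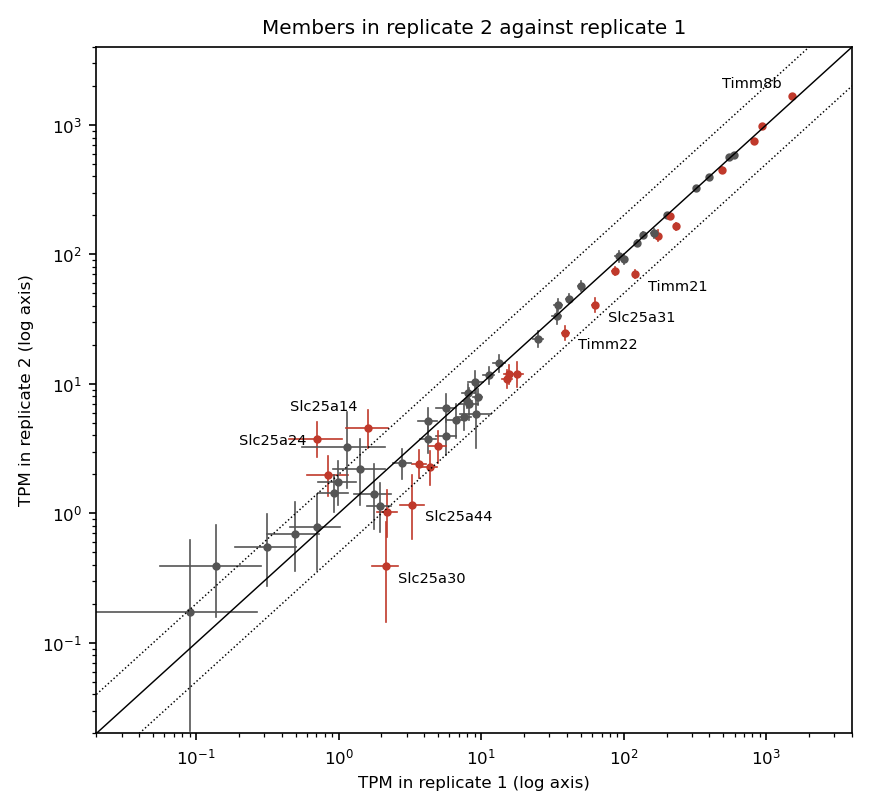
TPM of the members in replicate 2 against replicate 1 (log axes), with bars for exact Poisson 95% intervals, the solid line at equality, dotted lines at 2-fold in TPM and red for the members whose intervals do not overlap; Slc25a18, with 0 reads in replicate 2, is not drawn. Slc25a30 and Slc25a24 lie farthest from the line, and most members above 100 TPM lie close to it.

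Genes that work with the import machinery were all present. All 25 genes of a list of chaperones, peptidases and assembly factors were above 1 TPM in both libraries, with a median log2(TPM + 1) of 5.30, between those of carriers and Tomm and Timm genes. The highest were Hspe1, the small subunit of the matrix chaperonin, at 861 and 977 TPM, the inner membrane peptidase subunit Immp1l at 383 and 344 TPM, the motor subunit Dnajc19 at 224 and 233 TPM and Romo1 at 163 and 159 TPM. The lowest were Mtx3 at 2.26 and 1.98 TPM, the intermediate peptidase Mipep at 2.34 and 3.66 TPM, the TIM22 subunit Agk at 3.12 and 3.47 TPM and Mtch1 at 10.1 and 5.82 TPM.

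Other transport genes of the mitochondrial membranes were lower, with 10 of 14 above 1 TPM in both libraries and a median of 2.75 ± 0.59. The outer membrane pores Vdac2, Vdac3 and Vdac1 were at 85.0 and 81.2, 73.8 and 67.2, and 13.7 and 17.0 TPM, and Micu2, a regulator of calcium uptake, at 26.7 and 21.1 TPM. The calcium uniporter Mcu itself was at 0.364 and 0.086 TPM from 24 and 2 reads. The sideroflexins Sfxn2 and Sfxn5 were under 1 TPM in both libraries and Sfxn3 had no read in either.

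Promoter sequences were found in RefSeq for 53 of the 65 members, 64 windows of 300 bases in all, and were set beside the 32851 windows of all genes. Both strands were searched, and TGCGCA and CACGTG read the same on either. CCGGAAG was in 26.6% of the members' windows and 8.86% of all windows, CACGTG in 21.9% and 7.15%, TCCCGC in 28.1% and 19.98%, and TGCGCA in 14.1% and 7.76%. ATGGCGG, a YY1 site, was in 4.69% and 4.05%, and TATAAA, the TATA box, in 4.69% and 13.6%. The members' windows were also richer in CpG, with a median of 18 dinucleotides against 7, and a median GC content of 59.8% against 52.7%, so matches to motifs that hold CpG are not independent of base composition. Windows with CCGGAAG belonged to abundant members such as Mpc1, Slc25a4, Timm8b and Tomm22 and to scarce ones such as Slc25a20, Slc25a25, Slc25a38 and Timm8a2. A match is a description of letters and not evidence of binding.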

How the data were processed

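Total RNA of E9.5 PGCs was sequenced in 2 libraries. The authors deposited 1 table of TPM per gene for both, with no counts, and no column of other samples was present (0). The labels name the mm10 build and, in the submitters' processing notes, Bowtie2, HISAT2, RSEM and R 3.4.2, while the methods name featureCounts. The annotation, the strand setting and the handling of reads in overlapping genes are not given in the sources used here. The labels and the methods also differ in the library kit they name. The study calls its replicates biological, but the labels do not say whether these came from separate litters or sorts, so the spread between them may be partly technical.

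Whole reads were recovered from TPM with summed exonic lengths of GENCODE M21 (GRCm38), matched by symbol for 18748 of 18877 genes, with 129 unmatched. For 59 members reads were whole at that length, for 5 (Slc25a1, Slc25a28, Slc25a46, Timm21 and Tomm70a) at another length, and for Slc25a27 at none, so that its reads are approximate. In simulated tables of 18748 genes, made with the same lengths that were then used for recovery, 100% of reads were recovered in each library. That checks the arithmetic only and cannot show whether these lengths are the ones behind the deposited TPM. Overlaps of exons and shared words of 100 bases came from the same annotation and its transcripts. Intervals were exact Poisson (scipy 1.17.1, numpy 2.4.6, pandas 2.3.3, Python 3.11.15, matplotlib 3.10.9). PCR duplicates cannot be told from separate molecules, so intervals cover counting error only.

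With 1 group there was no test between groups, no count model and no p-value. Values are TPM in each library, or log2(TPM + 1) where a median or difference is given, without a filter on low values. At a mean of at least 1 TPM, 59 members remained. The members and all lists were chosen with earlier results of these data known. Named were every member of role groups of 8 or fewer genes, the 4 highest and 4 lowest of longer groups, both genes of each related pair, members past 2-fold at a mean TPM of at least 1, and the 4 highest and 4 lowest of the lists of other genes. Slc25a26 and the other members outside that rule were named to account for the members. The values of 1 member are not reported here. Alternatives were another scaling, a pseudocount of 0.1, a filter at a mean TPM of 1, other detection levels, reads not divided by length, each library left out and, chosen after seeing the data, principal transcript lengths and leaving out members that share exons or sequence.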

Additional observations from a re-analysis of the deposited data

How the results depend on the processing

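No paired analysis was possible because both libraries belong to 1 group. Of 49 alternative values that kept both libraries, 22 moved by less than the spread between the libraries (counts by less than 1.5 times), 25 moved by more and 2 reversed. Leaving out 1 of 2 libraries cannot move a mean past that spread and says nothing of stability. The members' median log2(TPM + 1) of 3.30 became 3.60 when short and mitochondrially encoded genes were left out of the scaling, 3.16 with a pseudocount of 0.1, 3.75 at a mean TPM of at least 1, 3.46 with principal transcript lengths and 3.04 without members that share exons or sequence, where all genes had 2.16, 1.46, 2.91, 1.82 and 1.87. It was 3.25 to 3.35 with either library left out. The 3 members past 2-fold between libraries became 5 with that scaling and 8 with a pseudocount of 0.1, where 1924 genes of the table became 1839 and 4468. The log2 ratio of Slc25a31 to Slc25a5 was -3.96 in TPM, -3.59 in reads and -4.37 with principal transcripts. That of Slc25a4 to Slc25a5 was -0.41, 0.10 and -0.53, and that of Slc25a33 to Slc25a36 was 2.13 in TPM, -0.21 in reads and 1.26 with principal transcripts. Slc25a25 over Slc25a24, within the spread of the libraries, was -0.49 in TPM, 0.70 in reads, 0.76 with principal transcripts and 0.39 without replicate 2, and Slc25a30 over Slc25a14 was -1.56, or 0.42 without replicate 2. The last 2 alternatives of the median were chosen after seeing the data. Depth limits the low members, since 31 of 65 had under 100 reads in replicate 2 and 4 had under 10.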
